A study of Homo sapiens with 9 samples.

Results

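The endothelin genes are 5 of the 20037 human protein-coding genes placed on the domain lists, namely the ligand genes EDN1, EDN2 and EDN3 and the receptor genes EDNRA and EDNRB. They were chosen by family name and selected on their covered percent and nearest domain in each library, which were already known, so those values are a description with no test. Listed H3K9me3 domains lay over EDNRB in 1 LmnB1 clone and over EDN3 in 1 mCherry clone, while EDN1, EDN2 and EDNRA lay outside the listed domains of all 8 libraries.

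The libraries came from hTERT RPE-1, a telomerase-immortalised human line derived from retinal pigment epithelium. The study mapped H3K9me3, a histone mark of silent chromatin, by Cut&Run, in which a nuclease tethered to the antibody ab8898 cuts out the marked DNA. The LmnB1 group stably overexpressed lamin B1, a protein of the nuclear lamina, fused to mCherry, and held replicates 1 and 2 of clones LmnB1_16 and LmnB1_6. The mCherry group stably overexpressed the fluorescent protein mCherry alone, and held replicates 1 and 2 of clones mCherry_3 and mCherry_4. All 8 libraries came from cells given doxycycline at 0.05 ug/mL for 24 hours, controls included, and the 1 input sample, from untreated wild-type cells, was used only through the input counts in the lists. Each line is 1 clone, so with 2 clones per construct a feature of 1 clone and an effect of the construct cannot be told apart. The lists hold no RNA values, so the labelled epithelial cell type could not be checked against its markers, and nothing below measures expression.

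Endothelins are short secreted peptides cut from longer precursors by endothelin-converting enzymes, and they act on G protein-coupled receptors. EDN1 from endothelial cells is a strong constrictor of blood vessels and acts through EDNRA on smooth muscle. EDNRB binds all endothelins with similar affinity, and with EDN3 it guides neural crest cells that become pigment cells and enteric neurons. Loss of EDNRB or EDN3 is a known cause of Hirschsprung disease and of Waardenburg syndrome with megacolon, and EDN1 and EDNRA pattern the lower jaw in the embryo. H3K9me3 in broad domains is a hallmark of heterochromatin, much of which lies against the nuclear lamina.

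A domain here is a region that the authors' lists report as enriched over input in 1 library, and a gene's coverage is the percent of its length, from the lowest to the highest RefSeq position, that lies in such domains. A gene at 0% is not shown to lack the mark, since a region below the lists' lowest log2 enrichment of 0.60 over input is not reported. The lists held 5366 to 11322 domains over 319.7 to 646 Mb, with 2855378 to 10321442 H3K9me3 reads inside domains. Depth relative to the shared input was 0.88 to 1.01 in the LmnB1 libraries and 0.421 to 0.859 in the mCherry libraries, so depth and construct cannot be told apart. Replicate 2 of LmnB1_6 stood apart from its partner, with 357 against 646 Mb covered, and 47 of the 851 domains of at least 200 kb in replicate 1 had no listed base in it. In the mCherry_3 pair, read counts over 229 domains with identical coordinates showed no difference past sampling noise by a chi-square test (246 on 228 degrees of freedom, p = 0.197), while the other pairs differed (chi-square p = 0.000368 to 0.038). In LmnB1_16 the chi-square was also little above its degrees of freedom (712 on 647), and more domains, 648, entered that test. The lack of a difference does not show that the mCherry_3 replicates, labelled biological, are 1 sample. The mCherry_3 pair was nevertheless counted as 1 sample in every mean ± SD, giving n = 3 for mCherry and n = 4 for LmnB1. This choice gives each mCherry_4 library more weight than each mCherry_3 library. Replicates of the other clones entered as separate values, so neither n is a number of clones and the SD is not a spread between clones. The check of mCherry_3 covers few of the 6115 and 6060 domains of the pair, and only where both lists agree in position. Elsewhere the lists differed, including beside EDN3.

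Of the 5 genes, 4 have promoters in the RefSeq table used here (GRCh38.p14), and EDN3 is not among them. The 250 bases before 2 RefSeq starts of EDNRB and 1 of EDN1 are shown, because the former lay inside a listed domain in LmnB1_6 and the latter holds letters of known regulatory motifs outside every listed domain. The EDNRB sequences lie at chr13:77918832-77919081 and chr13:77919683-77919932 on the minus strand, with CG dinucleotides in capitals. The EDN1 sequence lies at chr6:12290111-12290360 on the plus strand, with AP-1 letters (TGACTNA on either strand) and GATA letters (AGATAA on either strand) in capitals.
EDNRB start A: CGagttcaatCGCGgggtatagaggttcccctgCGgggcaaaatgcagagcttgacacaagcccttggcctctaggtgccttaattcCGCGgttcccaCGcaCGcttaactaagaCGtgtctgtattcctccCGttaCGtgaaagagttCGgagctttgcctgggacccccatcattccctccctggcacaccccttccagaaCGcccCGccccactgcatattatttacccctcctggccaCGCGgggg
EDNRB start B: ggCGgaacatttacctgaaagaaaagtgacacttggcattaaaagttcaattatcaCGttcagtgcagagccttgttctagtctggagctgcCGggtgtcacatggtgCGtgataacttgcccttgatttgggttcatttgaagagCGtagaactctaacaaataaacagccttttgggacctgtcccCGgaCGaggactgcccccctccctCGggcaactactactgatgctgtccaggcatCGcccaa
EDN1 start: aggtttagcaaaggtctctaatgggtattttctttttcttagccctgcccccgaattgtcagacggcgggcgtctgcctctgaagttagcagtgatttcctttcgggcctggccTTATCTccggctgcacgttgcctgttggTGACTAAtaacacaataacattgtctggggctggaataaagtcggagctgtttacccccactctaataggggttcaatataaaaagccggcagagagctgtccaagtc

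EDNRB start A held 16 CG dinucleotides at 58.4% G and C, and start B held 9 at 50%. The median of 35116 RefSeq promoters of this length was 11 CG dinucleotides, with quartiles of 3 and 23, so both EDNRB promoters were near the middle of the range. Both were covered whole in the 2 LmnB1_6 libraries and lay in no domain of the other 6 libraries. They lay deep inside those domains, 195 to 196 kb from the nearest domain edge in replicate 1 and 57.8 to 58.7 kb in replicate 2. The EDN1 promoter shown held 1 AP-1 match, 1 GATA match, on the opposite strand, and 1 match to the TATA box (TATAAA on either strand). It was picked for these letters. Of the other EDN1 promoters, that at chr6:12289764-12290013 held 1 AP-1 match and no GATA or TATA match. The promoter at chr6:12287769-12288018 held no match of any kind. Of all promoters of the same length, 9.8% held the AP-1 letters, 9.17% the GATA letters and 10.7% the TATA letters, and these 3 letter sets do not overlap in the EDN1 sequence. The nearest listed domain was 58.6 to 5269 kb away from the EDN1 promoter shown over the 8 libraries. A match of letters is a description of the sequence and shows no binding.

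EDNRB, the receptor for all 3 ligands, spans 80 kb (chromosome 13, 77895487 to 77975527). Listed domains covered 100% of it in both replicates of LmnB1_6 and 0% in both replicates of LmnB1_16, mCherry_3 and mCherry_4. The LmnB1 libraries thus averaged 50 ± 57.7% (SD, n = 4) and the mCherry libraries 0 ± 0% (SD, n = 3), and the 2 LmnB1 clones lay at opposite ends of the scale. In LmnB1_6 replicate 1 the gene lay in a domain of 413 kb (chromosome 13, 77702001 to 78115000) with 6869 H3K9me3 reads against 3613 input reads, a log2 enrichment of 1.01. In replicate 2 the domain was 239 kb (77861001 to 78100000) with 3103 against 2100 reads and a log2 enrichment of 0.71. The enrichments were the authors' values, and they were above 66.6% and 54.6% of all domains in the respective lists, whose medians were 0.89 and 0.70. The domain reached 193 kb below and 139 kb above the gene in replicate 1, and 34.5 and 124 kb in replicate 2, so EDNRB made up 19.4% and 33.5% of it.

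The domain over EDNRB was 1 piece of a longer covered tract in LmnB1_6. The 131 kb from SLAIN1, a gene for a microtubule-binding protein, to EDNRB were covered to 100% and 75.8% in replicates 1 and 2. They were covered to 4.57% in each LmnB1_16 replicate, through 1 domain of 6 kb in each, and to 0% in the mCherry libraries. SLAIN1 itself was covered to 93.5% and 49.6% in LmnB1_6 and to 0% in the other 6 libraries. Beyond EDNRB, the 623 kb up to POU4F1, a sensory neuron transcription factor gene, were covered to 84.7% and 59.8% in LmnB1_6. LmnB1_16 had 0.803% there in replicate 1 and 0% in replicate 2, and the mCherry libraries had 0%. POU4F1 and its neighbour OBI1 were at 0% in all 8 libraries, and so was SCEL on the far side of SLAIN1. The domains over EDNRB in both replicates also overlapped EDNRB-AS1, a non-coding gene antisense to EDNRB, and the non-coding genes LINC01069, LINC00446 and OBI1-AS1.

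**Figure D1:**
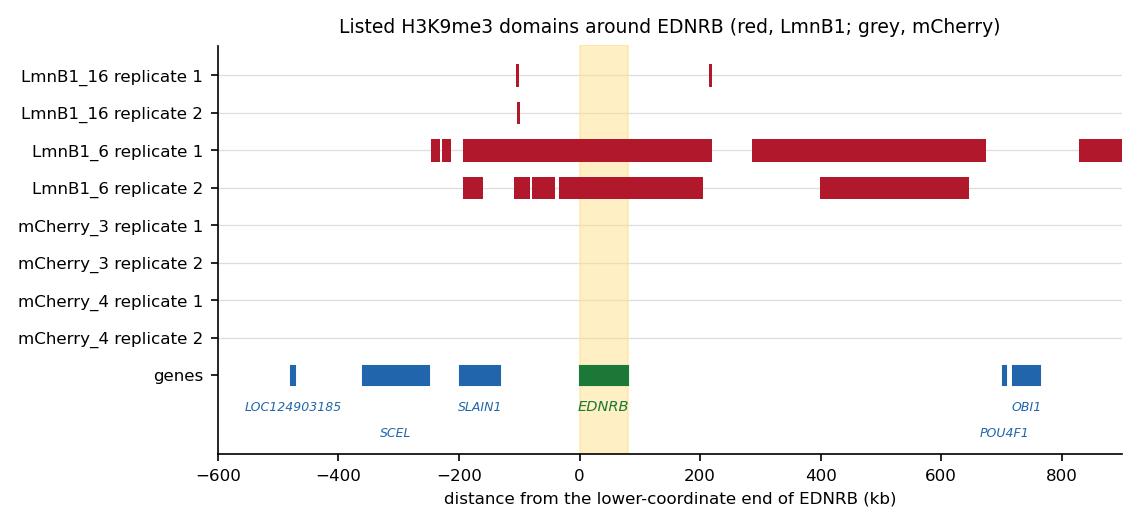
Listed H3K9me3 domains around EDNRB in the 8 libraries (1 row each; red, LmnB1; grey, mCherry), against the distance in kb from the lower-coordinate end of the gene, with protein-coding genes below and EDNRB shaded. Long domains cover the gene in both LmnB1_6 replicates, while LmnB1_16 has short domains of 5 to 6 kb outside it and the mCherry libraries have none in the range drawn.

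Within 1 Mb on each side of EDNRB, listed domains covered 1093 and 585 kb in LmnB1_6 replicates 1 and 2 and 20.5 and 24.5 kb in LmnB1_16. They covered 11 and 11.5 kb in mCherry_3 and 0 kb in both mCherry_4 libraries. The 4 LmnB1 values were therefore above the 4 mCherry values, a pattern held by 4.62% of all protein-coding genes. The reverse order was held by 0.294%, with none of the endothelin genes among them. The nearest domain was 0 kb away in LmnB1_6 and 100.5 and 98.5 kb away in LmnB1_16 replicates 1 and 2. It was 933 and 932 kb away in mCherry_3 and 2647 and 1768 kb away in mCherry_4. All 4 LmnB1 distances were shorter than all 4 mCherry distances, as for 2.78% of all protein-coding genes, and the 2 clones of each construct lay far apart from each other.

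EDNRA, the receptor through which EDN1 constricts vessels, spans 63.9 kb (chromosome 4, 147481097 to 147544954) and was at 0% in all 8 libraries. With EDN1 and EDN2 it shared this value with 79.3% of all protein-coding genes (15897 of 20037). In LmnB1_16 the nearest domain was 16 kb from EDNRA (replicate 1) and 124 kb (replicate 2), against 17 and 1670 kb in LmnB1_6. The distance was 42.1 and 207 kb away in mCherry_3 and 1043 and 1090 kb away in mCherry_4. The longest distance was thus in a LmnB1 library, and the constructs overlapped. Within 1 Mb on each side, 15, 8 and 12 domains were listed in LmnB1_16 replicates 1 and 2 and LmnB1_6 replicate 1, covering 84, 48 and 74.9 kb. LmnB1_6 replicate 2 and both mCherry_4 libraries had none, and mCherry_3 had 2 in each replicate, covering 12 and 16 kb. These domains were short, 3 to 14 kb after merging across libraries. Of the 17 merged regions around EDNRA, 14 were listed in LmnB1 libraries and in no mCherry library, and 0 in mCherry libraries and no LmnB1 library. Over all chromosomes, 52.2% of 12013 merged regions were of the former kind and 6.72% of the latter. The neighbours PRMT9 and TMEM184C on the higher side and POU4F2 on the lower side were at 0% in every library.

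The ligand EDN1 spans 66.7 kb in the RefSeq gene record (chromosome 6, 12230516 to 12297194) and was at 0% in every library. In LmnB1_16 the nearest domain was 51.8 kb away (replicate 1) and 383 kb away (replicate 2), against 52.8 and 2172 kb in LmnB1_6. The distance was 1672 and 1556 kb away in mCherry_3 and 5262 and 1871 kb away in mCherry_4. The 3 closest values were LmnB1 libraries, but LmnB1_6 replicate 2 lay beyond 3 of the 4 mCherry libraries, so the constructs overlapped. Within 1 Mb on each side, 48, 23 and 32 kb were listed in LmnB1_16 replicates 1 and 2 and LmnB1_6 replicate 1, and 0 kb in the other 5 libraries. The domains in this window were 4 to 14 kb long after merging, and its mean of 12.9 kb over the 8 libraries exceeded that of 7.2% of all protein-coding genes. HIVEP1, a zinc finger gene, and PHACTR1, a phosphatase and actin regulator, are the nearest genes on either side and were at 0% in all 8 libraries.

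EDN2 codes for a ligand that differs from EDN1 in a few residues, and the gene is the shortest of the family at 5.91 kb (chromosome 1, 41478775 to 41484683). It was at 0% in every library. Its nearest domain was 31.8 kb away in LmnB1_16 replicate 1 and in mCherry_3 replicate 2. It was 137 kb away in LmnB1_16 replicate 2 and mCherry_3 replicate 1, 138 and 135 kb in LmnB1_6, and 952 and 949.8 kb in mCherry_4. The region at about 137 kb (chromosome 1, 41326001 to 41344000 after merging), between SCMH1 and FOXO6, was listed in the 6 libraries other than mCherry_4, in both constructs. The window within 1 Mb on each side was covered to 50.2 to 147 kb in the LmnB1 libraries and 44.2 to 102 kb in the mCherry libraries, and the groups overlapped.

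**Figure D2:**
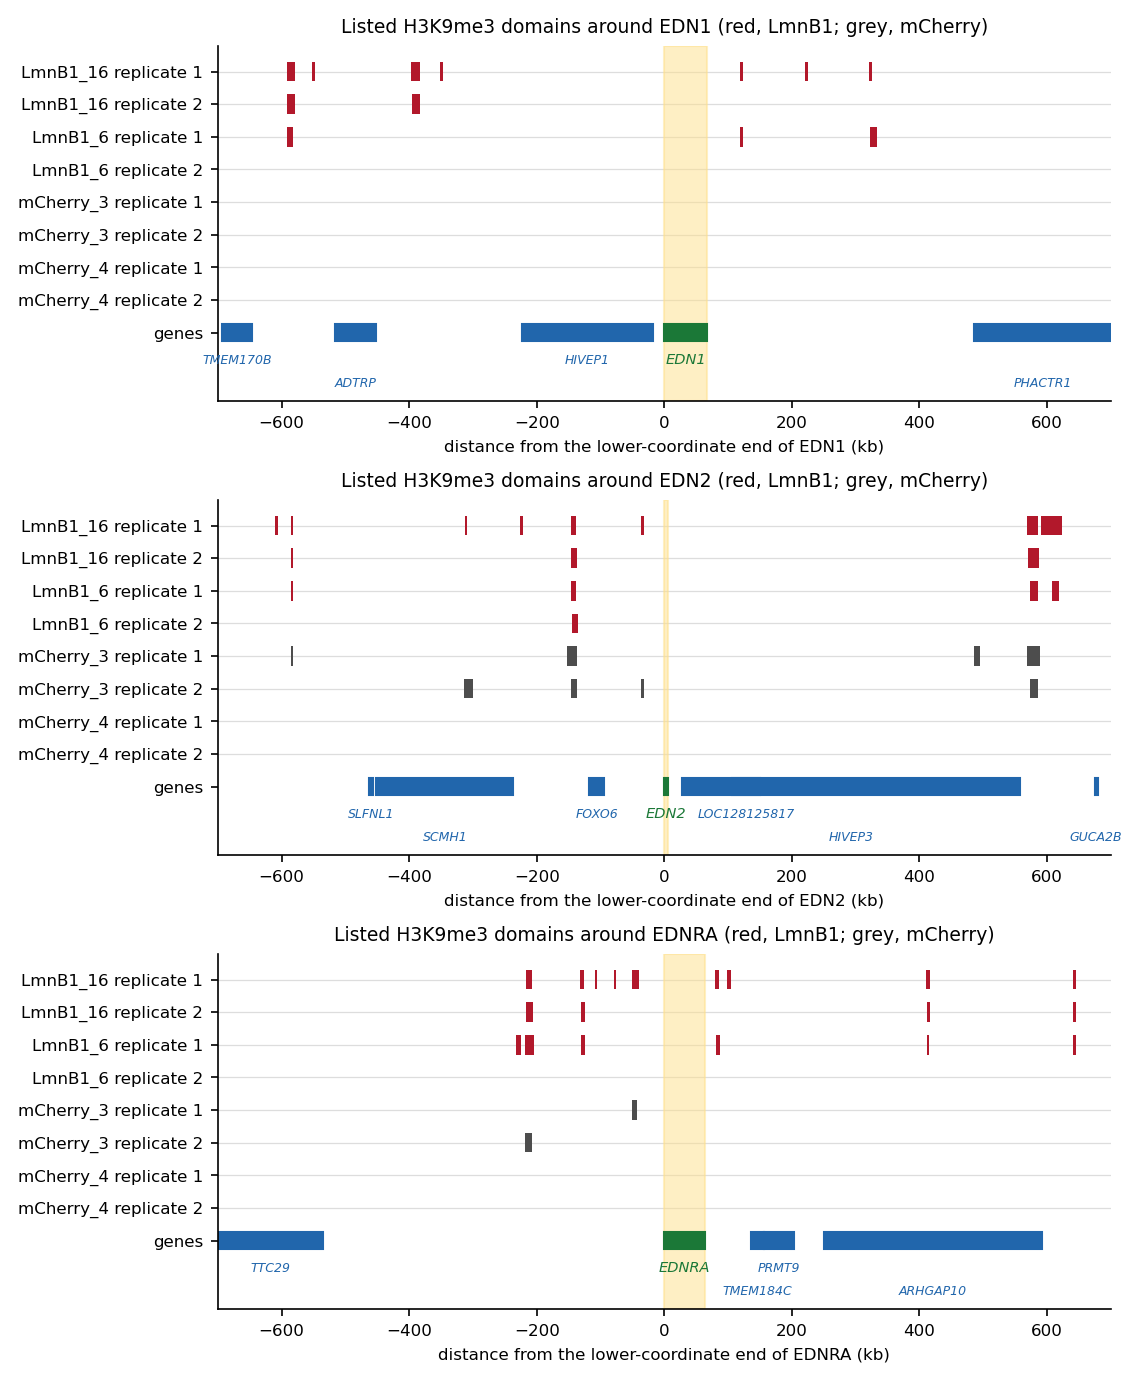
Listed H3K9me3 domains around EDN1, EDN2 and EDNRA in the 8 libraries (1 row each; red, LmnB1; grey, mCherry), against the distance in kb from the lower-coordinate end of each gene. No domain lies over any of the 3 shaded genes. Short domains lie on both sides of EDNRA in LmnB1_16 and LmnB1_6 replicate 1, and on its lower side in mCherry_3. Around EDN1 they lie on both sides in replicate 1 of LmnB1_16 and of LmnB1_6, and on the lower side alone in LmnB1_16 replicate 2.

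EDN3, the ligand that acts with EDNRB in neural crest, spans 25.4 kb (chromosome 20, 59300611 to 59325992). Listed domains covered 100% of it in both mCherry_3 replicates and 0% in mCherry_4, LmnB1_16 and LmnB1_6. The mCherry libraries averaged 33.3 ± 57.7% (SD, n = 3) and the LmnB1 libraries 0 ± 0% (SD, n = 4). The difference, LmnB1 minus mCherry, was -33.3 points, and -50 points with the mCherry_3 pair counted as 2 samples. Either way it rests on 1 clone. In mCherry_3 replicate 1 the domain was 254 kb (chromosome 20, 59278001 to 59532000) with 3040 H3K9me3 reads against 2151 input reads, a log2 enrichment of 0.79. In replicate 2 it was 95 kb (59278001 to 59373000) with 1100 against 825 reads and a log2 enrichment of 0.71. Both began at the same position, 22.6 kb below the gene. They ranked low in their lists, above 33.5% and 19.6% of all domains, and the coverage of EDN3 was 0% in all 8 libraries when only the 50% of domains with the highest scores in each list were kept. EDN3 was also at 0% in all 8 when each list was cut from its lowest scores to equal covered length, and when domains had to reach a log2 enrichment of 1. EDNRB kept 100% in both LmnB1_6 libraries under the first and second of these, and in replicate 1 alone under the last.

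EDN3 lies beside chromatin that was listed in both constructs. The 252 kb from EDN3 to PHACTR3, another phosphatase and actin regulator gene, had 29.2% (replicate 1) and 21.7% (replicate 2) covered in LmnB1_16, against 16.1% and 1.79% in LmnB1_6. The mCherry_3 libraries had 97.6% and 78.3% of it covered, the mCherry_4 libraries 57.9% and 18.3%, and the constructs overlapped. PHACTR3 itself was covered to 100% in LmnB1_16, 100% and 70% in LmnB1_6, and 76.3% and 51.1% in mCherry_4. In mCherry_3 it was covered to 100% in replicate 1 and 0% in replicate 2. The long domain there in replicate 1 (59538001 to 59865000, log2 enrichment 0.94) was 1 of 3 among its 727 domains of at least 200 kb with no listed base in replicate 2. SYCP2, a gene of the meiotic chromosome axis, showed the same gap, with 34.9% in mCherry_3 replicate 1 and 0% in replicate 2. On the lower side, ZNF831, a zinc finger gene, and the next 2 genes were at 0% in every library.

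**Figure D3:**
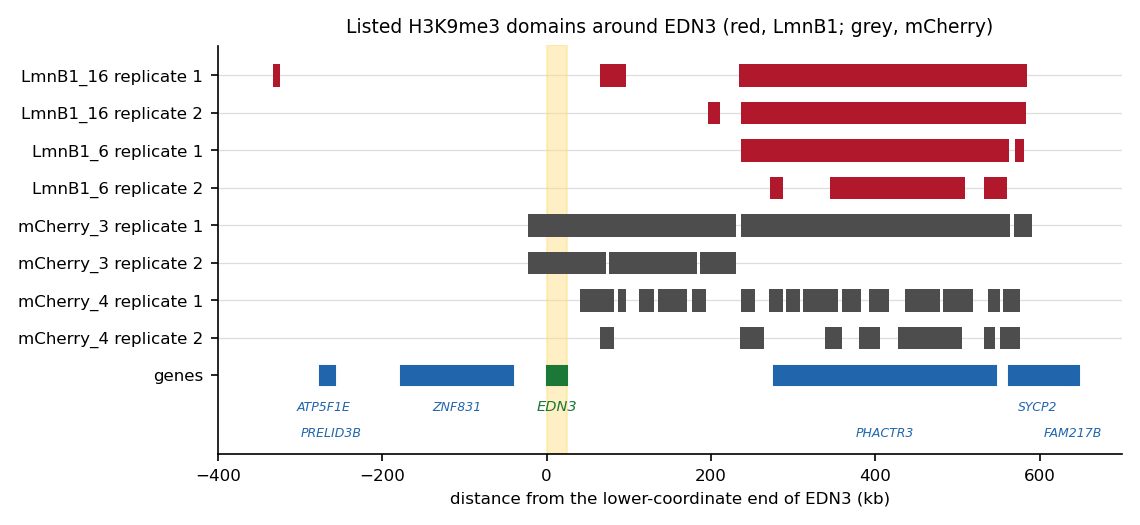
Listed H3K9me3 domains around EDN3 in the 8 libraries (1 row each; red, LmnB1; grey, mCherry), against the distance in kb from the lower-coordinate end of the gene. The domains that reach EDN3 are those of both mCherry_3 replicates, and the domains over PHACTR3 appear in 7 libraries, all but mCherry_3 replicate 2.

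The nearest domain was 0 kb from EDN3 in mCherry_3, 15 and 39 kb away in mCherry_4 replicates 1 and 2, 40 and 171 kb in LmnB1_16, and 211 and 247 kb in LmnB1_6. All 4 mCherry values were below all 4 LmnB1 values, as for 0.284% of all protein-coding genes, but the closest pair of the constructs was 1 kb apart (39 and 40 kb). Within 1 Mb on each side, listed domains covered 230 to 429 kb in the LmnB1 libraries and 221 to 631 kb in the mCherry libraries. By this mean over 8 libraries, 83.1% of all protein-coding genes had less, against 76.4% for EDNRB, 58.8% for EDN2, 24.9% for EDNRA and 7.2% for EDN1. The order of mean covered length was thus EDN3, EDNRB, EDN2, EDNRA and EDN1, at 370.5, 218, 81, 29.4 and 12.9 kb, and neighbours in that order overlapped over the 8 libraries.

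**Figure D4:**
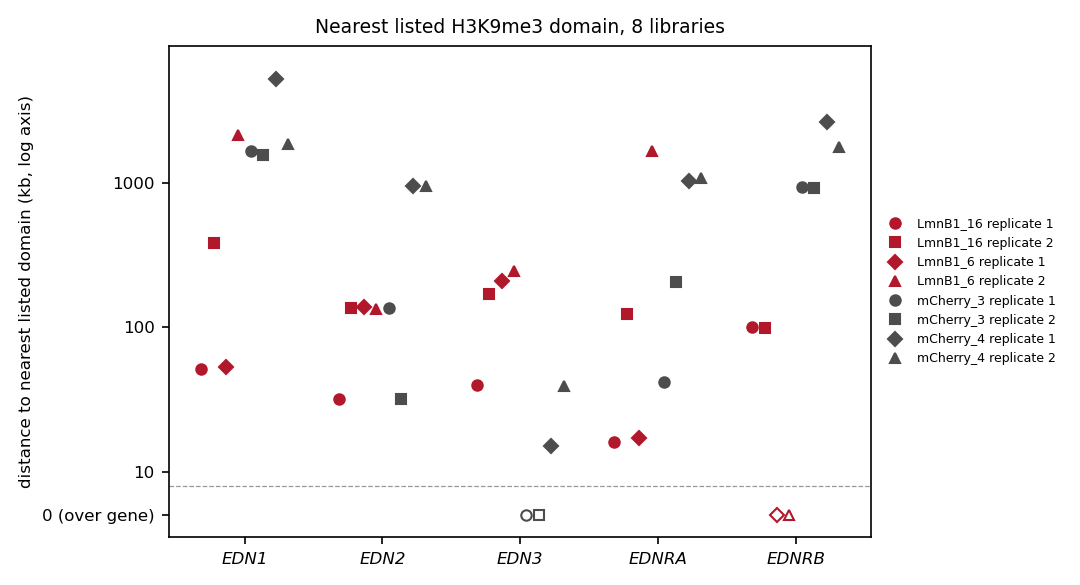
Distance in kb, on a log axis, from each endothelin gene to the nearest listed domain in each of the 8 libraries, with 1 point per library and genes covered by a domain drawn at 0 below the dashed line. EDNRB is at 0 in LmnB1_6 and EDN3 at 0 in mCherry_3, and EDN1 has the longest distance, 5262 kb in mCherry_4 replicate 1.

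**Figure D5:**
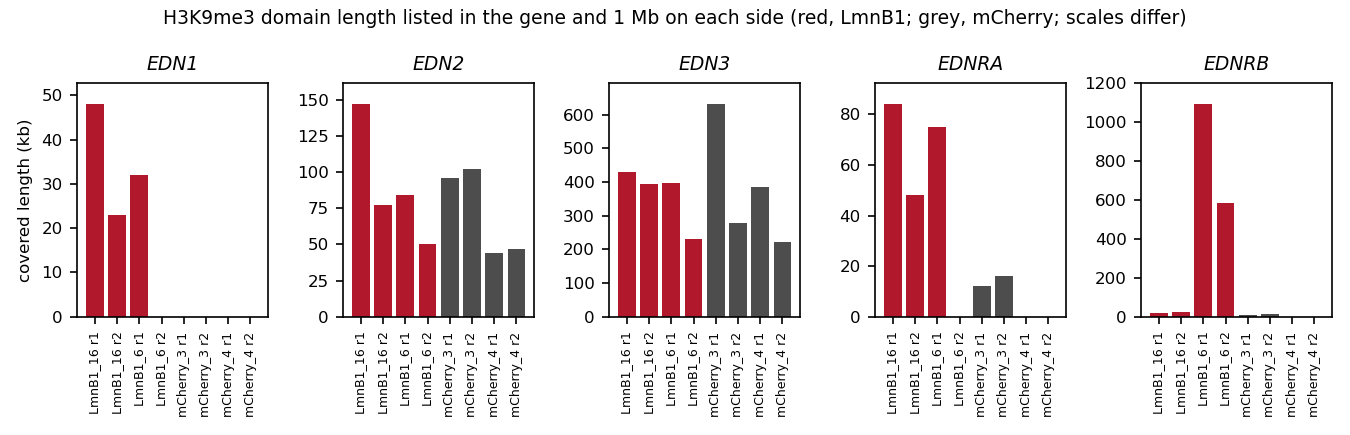
Length in kb of listed domains in each endothelin gene and 1 Mb on each side, with 1 bar per library (red, LmnB1; grey, mCherry) and a separate scale per gene starting at 0. The EDNRB bars reach 1093 and 585 kb in LmnB1_6 and stay at or below 24.5 kb in the other 6 libraries.

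Coverage of at least 90% in both replicates of 1 clone with 0% in the other 6 libraries was found for 31 genes at 18 loci in LmnB1_6 (0.155% of all protein-coding genes), EDNRB among them. It was found for 11 genes at 10 loci in mCherry_3 (0.0549%), EDN3 among them, for 8 genes in LmnB1_16 (0.0399%) and for 0 in mCherry_4. More than 1 Mb away from EDNRB, 26 genes had the same covered percent in each of the 8 libraries. The first 5 by name were C3orf85, CSN3 (a milk casein gene), DDI1, HTN1 and HTN3 (both salivary histatin genes), 3 of them on chromosome 4. For EDN3, 10 genes had the same 8 values, the first 5 by name being AQP4 (a water channel gene), CD209 (a lectin gene of dendritic cells), ENPP4, ENPP5 and IGFL3. Ties were ordered by name because the mean absolute difference over the 8 libraries was 0 points for all of them. Covered percent in every LmnB1 library exceeded that in every mCherry library for 73 genes (0.364%), and was below it for 9 (0.0449%), with no endothelin gene in either set.

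Around the 5 genes, the 3 nearest protein-coding genes on each side gave 30 neighbours. Of these, 21 were at 0% in all 8 libraries, against 79.3% of all protein-coding genes. The other 9 include PHACTR3, SYCP2 and SLAIN1, described above. The remaining neighbours had low values, with SCMH1 at 6.51% in mCherry_3 replicate 2 and RBM26 at 4.24% in LmnB1_16 replicate 1.

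Genes of the endothelin pathway, in 7 lists of 131 genes that leave out the 5 family members, were looked at in the same way. Of the 131, 102 were at 0% in all 8 libraries (77.9%, against 79.3% of all protein-coding genes), and 15 had a mean covered percent of at least 5 and entered the limma test of LmnB1 against mCherry. By list, the share at 0% ran from 69.2% (pharyngeal arch genes) to 84.6% (transcription factors). None of the 15 tested genes passed an adjusted p of 0.05 in limma. Among all 2304 genes tested, 5 were called higher with LmnB1 (0.217%) and 2 lower (0.0868%). With so few calls among all genes, a count of 0 says little about any list. At an unadjusted limma p under 0.05 there was 1 pathway gene, VIPR2, against 84 of all genes tested (3.65%). The median difference over the 15 was 13.1 points against 3.73 for all genes tested. Some of the 15, such as DLX5, DLX6 and MITF, were at 0% in every mCherry library. Those genes passed the filter through LmnB1 coverage alone, so the filter helps set this median and no conclusion is drawn from it. Differences from limma use all 4 mCherry libraries, whereas means ± SD count the mCherry_3 pair once.

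Of the 9 genes in the list for endothelin processing, 7 were at 0% in all 8 libraries, among them the converting enzymes ECE1 and ECE2. This share of 77.8% was near the 79.3% of all protein-coding genes. The neprilysin gene MME reached 6.9% in LmnB1_16 replicate 1 and its relative MMEL1 18.9% in LmnB1_16 replicate 2, and neither was high enough to be tested. Of 31 genes of receptor signalling, 23 were at 0%, 3 were tested and 0 passed. PLCB1, a phospholipase C that relays the receptor signal to calcium stores, had 66% and 16.9% in the LmnB1_16 libraries, 10.8% and 0% in those of LmnB1_6, and 0 to 9.43% with mCherry. The difference was 18.5 points (SE 17.5, limma adjusted p = 0.911). PLCB2, of the same family, had 50.4% and 16.9% in LmnB1_16 and 0% in the other 6 libraries. GNAI1, an inhibitory G protein subunit, had up to 19.7%, and ITPR2, a calcium release channel, up to 3.62%.

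Of the 5 receptors close to the endothelin receptors, 4 were at 0%, and GPR37 had 100% in LmnB1_6 replicate 1 and 0% in the other 7 libraries. Of 13 transcription factors known at endothelin genes, 11 were at 0%. MITF, the melanocyte factor that acts in the same pigment lineage as EDNRB, had 100% and 64.4% in LmnB1_6 replicates 1 and 2 and 0% in the other 6 libraries. Its difference of 41.1 points (SE 24.6) had a limma adjusted p of 0.909. PAX3, which acts upstream of MITF in neural crest, reached 7.06% in LmnB1_16 replicate 1. Of 15 enteric neural crest and pigment genes, 12 were at 0%. NRG1, a growth factor gene, had 0 to 16.5% with LmnB1 and 0.243 to 18% with mCherry, and SEMA3D, an axon guidance gene, reached 1.18%.

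Of 13 pharyngeal arch genes that act downstream of EDN1 and EDNRA, 9 were at 0% (69.2%, against 79.3% of all protein-coding genes). In this list 4 were tested and 0 passed. MSX2, a homeobox gene, had 45.9 to 100% in the LmnB1 libraries, 100% in both mCherry_3 libraries, and 93.4% and 0% in mCherry_4, so coverage was shared by both constructs. GSC, another homeobox gene, had 100% in replicate 1 of LmnB1_16 and of LmnB1_6 and 0% elsewhere, a difference of 50 points (SE 40.1, limma adjusted p = 0.911). DLX5 and DLX6, adjacent homeobox genes that EDN1 signalling turns on in the lower jaw, had 100% in LmnB1_16 replicate 1 and 0% in the other 7 libraries. Of 45 genes of other vasoactive peptide systems, 36 were at 0%, 4 were tested and 0 passed. TAC1, the substance P gene, had 100% in both LmnB1_16 libraries and 0% in both LmnB1_6 libraries, with 94.4% and 100% in mCherry_3 and 100% and 0% in mCherry_4. NOS1, the neuronal nitric oxide synthase gene, had 63.2% and 50.6% in LmnB1_16, 0% in LmnB1_6 and 0 to 46.7% with mCherry. VIPR2, a receptor for vasoactive intestinal peptide, had 5.03 to 15.3% in the 4 LmnB1 libraries and 0 to 1.6% in the mCherry libraries. All 4 LmnB1 values were above all 4 mCherry values, as for 0.364% of all protein-coding genes. The VIPR2 difference was 9.16 points (SE 3.35, limma adjusted p = 0.907). RAMP3, a partner protein of calcitonin-type receptors, had 41.6% in LmnB1_16 replicate 1 alone.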

How the data were processed

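The authors deposited 1 list of domains per library. SICER, deepTools, DESeq2 and DiffBind 3.0.15 are named in the submitters' processing notes without their roles, with the builds GRCh38 and hg38. No aligner is named there. Per domain, the deposited lists give counts of H3K9me3 and input reads, a p-value and an adjusted p-value, the log2 enrichment over input and a score, which is 100 times that log2. The counts exist only for a library's own domains, so no count model was run.

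Gene positions came from RefSeq (GRCh38.p14), which gave no strand, exons or introns for genes. Covered percent, distance to the nearest domain and covered length within 1 Mb were computed in Python 3.11.15. The test of LmnB1 against mCherry was run with limma 3.58.1 (R 4.3.3) on genes covered to at least 5% on average, took the clone as a random block, and adjusted by Benjamini-Hochberg at 0.05. The 8 libraries were the units of the fit, with 1 clone correlation shared by all genes (0.366 in the main fit). They come from 2 clones per construct, so the p-values may be too small for a comparison of clones. The functions were tested on simulated data. The labels call the replicates biological but name no culture or day, so p-values measure the spread between these libraries.

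The family, the pathway lists and the tests were chosen with earlier results of these data known. Named genes are the 5 family members, up to 4 genes per list with the highest mean covered percent above 0, the 3 nearest genes on each side, and the 5 genes most alike. The values of 1 such gene are not reported here. Alternatives were other domain thresholds, other fits and leaving out each library; counting the mCherry_3 pair once in the fit, or as 2 in the means, was chosen after seeing the data.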

Additional observations from a re-analysis of the deposited data

Results flagged for a closer look

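In the LmnB1 group of 4 libraries, distances to the nearest domain and covered lengths within 1 Mb gave 10 sets of values in which a library could stand far from the others. Chance picks about 1 in 20 sets of independent samples, but these 4 libraries are 2 replicates of 2 clones, and the genes were selected on their distances, so the values are a description. In 3 sets a library stood apart, its gap to the nearest other value divided by the range being above Dixon's critical value for 4 samples. The nearest domain to EDN1 was 2172 kb away in LmnB1_6 replicate 2, against 51.8 to 383 kb in the other LmnB1 libraries (gap over range 0.844). The nearest domain to EDNRA was 1670 kb away in that library too, against 16 to 124 kb (0.935). LmnB1_6 replicate 2 had the fewest domains of the 8 lists, 5366, and whether that moves these distances was not tested. The nearest domain to EDN2 was 31.8 kb away in LmnB1_16 replicate 1, against 135 to 138 kb in the others (0.972). That library had the most domains, 11322. The mCherry values were not looked at this way, since the mCherry_3 pair counts as 1 and leaves 3.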

How the results depend on the processing

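Alternatives gave 193 values. Of these, 180 moved by less than 1 SD between libraries or, for counts of genes, by at most 1.5 times. For distances and for EDN3 coverage that SD is wide, and the EDN3 change from -33.3 to 0 points counts among the 180. EDN1, EDN2 and EDNRA were at 0% in every library. Their coverage differences could not move when a library or domains were left out, so the 180 overstates how stable the results are. No coverage difference of the 5 endothelin genes turned its sign. The difference between LmnB1 and mCherry was 50 points for EDNRB, with 33.3 to 66.7 points when a library was left out and 25 with a log2 enrichment of at least 1. For EDN3 it was -33.3 points, -50 with the mCherry_3 pair counted as 2, and 0 with the highest-scoring 50% of each list, equal covered length or a log2 enrichment of at least 1. The median distance to the nearest domain over the 8 libraries was 39.5 kb for EDN3, and 210, 210 and 653 kb under those 3 settings. With domains of at least 10 kb alone it was 564 kb for EDN2, against 137 kb, 1590 kb for EDNRB, against 516 kb, and 625 kb for EDNRA, against 166 kb. The EDNRB median rests on single libraries: it was 932 kb without any 1 of the LmnB1 libraries and 100.5 kb without any 1 of the mCherry libraries. It was 930 kb with the highest-scoring 50% or equal covered length. With a log2 enrichment of at least 1 the EDN2 median was 359.8 kb. For EDNRB with a log2 enrichment of at least 1, no median could be had, because a list had no domain left on chromosome 13. The counts of genes called were 5 higher and 2 lower with LmnB1. They were 0 and 0 with a log2 enrichment of at least 1, and 1 lower with the highest-scoring 50%. Leaving out 1 library gave 5 to 57 higher. The 57 came without LmnB1_6 replicate 2, and leaving out 1 mCherry_3 library or the other gave 9. It gave 2 to 8 lower, 4 without LmnB1_16 replicate 1 and 8 without mCherry_4 replicate 2; the cause was not tested. Of the pathway genes, 0 were called under all 18 alternatives, with 0 or 1 at an unadjusted p under 0.05.

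With the replicate number added as a replicate block, 5 genes were called higher and 2 lower, and 0 pathway genes. Correlations between clones of the difference between replicates ran from -0.02 to 0.10, and not every library went best with its own number. Covered percent depends on the lists' threshold, so these values cannot show whether libraries with the same number shared a day or batch. A region under the authors' threshold is not listed, so 0% coverage is a limit of the list. How far depth sets the lists was not tested: within mCherry_4, replicate 1 at a depth of 0.421 listed 8579 domains, and replicate 2 at 0.859 listed 6928.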

Other observations

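Listed regions within 1 Mb of each endothelin gene were merged over the 8 libraries. All 8 regions around EDN1 were listed in LmnB1 libraries and in no mCherry library, and so were 6 of 14 around EDN2, 3 of 8 around EDN3, 14 of 17 around EDNRA and 5 of 7 around EDNRB. Over all chromosomes 52.2% of merged regions were of this kind. Of the 5 genes, EDN2 alone had regions listed in mCherry libraries and no LmnB1 library, 2 of 14, against 6.72% of all merged regions. A single region was listed in all 8 libraries, 85 kb on chromosome 1 (40444001 to 40529000). Its closer end lay 949.8 kb below EDN2, at the edge of the window. Regions listed in 1 library alone were 4 of 8 around EDN1, 7 of 14 around EDN2, 2 of 8 around EDN3, 6 of 17 around EDNRA and 3 of 7 around EDNRB. The share of such regions over all chromosomes is not given here. The deeper libraries are those of LmnB1, and depth and construct cannot be told apart here.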
